A study of Drosophila melanogaster with 2 samples.

Results

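Of 4488 Bgb-eGFP peaks in fly embryos, 319 lay inside a gene body but away from every promoter. A peak was counted here when its summit was more than 1000 bp from every transcription start site (TSS) and between the start and end of at least 1 gene in the Ensembl annotation, with transposable elements left out. These gene-body distal peaks made up 7.11% of the list (exact 95% binomial interval 6.37 to 7.90). The other peaks were 3966 within 1000 bp of a TSS, called promoter peaks below, and 203 distal intergenic peaks. Within the list the choice used position alone, and not the signal, the replicates or the sequence of the peaks. The list itself was thresholded by the irreproducible discovery rate per its file name, so signal and replicates bore on which peaks are in it. The count depended on the list: 211 such peaks were found in the list of replicate 2 alone and 540 in that of replicate 1 alone.

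Bgb (Big brother) is the fly homolog of CBF-beta, a protein that does not bind DNA itself and works as the partner of Runt-domain transcription factors such as Runt and Lozenge. Sites within introns can act as enhancers, silencers or insulators, and many fly regulatory genes carry such elements in long introns. Fly regulatory DNA is also read by proteins with general roles: GAGA factor, made by Trl, binds GAGAG and opens chromatin, while BEAF-32 binds CGATA at many promoters and CTCF binds a longer sequence at domain borders.

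ChIP-seq, the sequencing of DNA recovered by chromatin immunoprecipitation, was done on whole Drosophila melanogaster embryos of 0 to 24 h, strain Bgb-GFP, which carry a transgene for Bgb fused to enhanced green fluorescent protein. The labels give 2 biological replicates of 1 group and no second condition, so no test between conditions was possible. The labels' free text names an antibody against GFP while their antibody entry names Bgb, and the sex of the embryos was not collected. The promoter that drives the fusion and the state of the untagged gene are not given in the labels or files used here, and a mixed age range and all tissues of the embryo share each sample. Control libraries were not analysed here, read depth is unknown, and every interval below covers the counting of peaks only. The replicate lists held 6061 peaks for replicate 1 and 3200 for replicate 2.

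The sequence round the summit of 11 intronic peaks shows the range of DNA involved. The first 6 are the strongest intronic gene-body distal peaks from the arms shown, and CG32264 is the strongest of that same kind with GAGAG. The other 4 were picked after the values were seen, for a pair of ecdysone response genes and for a shared word. Each run is 101 bases of the plus strand of dm6 (RefSeq Release 6 sequence), centred on the summit and written 5′ to 3′. Capitals mark, on either strand, the GAGA factor word GAGAG, the BEAF-32 word CGATA, the DREF word TATCGATA, the Runx words, the CTCF core AGATGGCG and the word CTATCAGA.
CG3726, chrX:5918866-5918966, intron 1: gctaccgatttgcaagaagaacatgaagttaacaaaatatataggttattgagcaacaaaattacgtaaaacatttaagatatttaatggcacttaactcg
org-1, chrX:8452318-8452418, intron 1: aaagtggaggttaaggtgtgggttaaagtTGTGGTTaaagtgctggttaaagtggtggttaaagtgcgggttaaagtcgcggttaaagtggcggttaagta
Atg1 and CG42709, chr3L:12794677-12794777, intron 2: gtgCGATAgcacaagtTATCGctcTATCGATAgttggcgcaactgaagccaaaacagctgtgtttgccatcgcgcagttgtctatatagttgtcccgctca
Pp2C1, chrX:4684695-4684795, intron 1: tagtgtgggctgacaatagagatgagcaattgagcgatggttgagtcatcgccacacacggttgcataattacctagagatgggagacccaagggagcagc
CG8745, chr3L:13862564-13862664, intron 2: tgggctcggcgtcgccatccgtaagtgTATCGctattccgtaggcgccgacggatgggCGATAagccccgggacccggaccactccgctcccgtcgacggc
Svil, chr3L:2485882-2485982, intron 13: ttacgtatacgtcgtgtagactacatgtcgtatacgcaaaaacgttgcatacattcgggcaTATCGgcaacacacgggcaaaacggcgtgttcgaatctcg
CG32264, chr3L:3789285-3789385, intron: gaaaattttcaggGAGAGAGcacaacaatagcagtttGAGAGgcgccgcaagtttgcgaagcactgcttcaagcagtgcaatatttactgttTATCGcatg
Eip74EF, chr3L:17597055-17597155, intron: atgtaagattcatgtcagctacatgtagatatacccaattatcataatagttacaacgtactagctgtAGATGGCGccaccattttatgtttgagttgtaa
Eip75B, chr3L:17988306-17988406, intron 4: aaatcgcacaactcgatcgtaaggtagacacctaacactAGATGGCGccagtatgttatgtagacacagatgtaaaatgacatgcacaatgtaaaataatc
kibra, chr3R:14706962-14707062, intron 1: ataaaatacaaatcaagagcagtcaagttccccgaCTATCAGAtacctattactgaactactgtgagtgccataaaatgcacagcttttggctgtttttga
Dmtn, chr3R:6397752-6397852, intron 2: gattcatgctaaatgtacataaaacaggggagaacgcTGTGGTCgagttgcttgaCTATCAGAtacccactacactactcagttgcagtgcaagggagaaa
The first and strongest, in CG3726, holds none of the capitalised words. The org-1 window is a tandem repeat built on ggttaaag, and its Runx word falls within that repeat. The Atg1 window has several CGATA copies close together, and the Eip74EF and Eip75B windows each hold AGATGGCG followed by cca.

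Most gene-body distal peaks were intronic, and coding exons held few of them. The summit was in an intron for 244 of 319 (76.5%, 71.4 to 81.0), while introns made up 70.9% of the sequence where such a peak could lie, which is gene-body sequence more than 1000 bp from every TSS. Coding exons held 16 (5.02%, 2.89 to 8.02), against 19.2% of that sequence. The 3' untranslated regions (3' UTRs) of messages held 48 (15.0%, 11.3 to 19.5), against 8.14% of it. The other classes were small, with 7 summits in other exons and 4 in 5' UTRs. The coding-exon share was 9.95% in the list of replicate 2 alone and 4.81% in that of replicate 1 alone.

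Each peak class also differed in density. The density was 4.58 peaks per Mb of eligible sequence in all, 4.94 per Mb in introns, 8.47 per Mb in 3' UTRs and 1.20 per Mb in coding exons. Among the 48 peaks in 3' UTRs, 18 lay within 500 bp of the host's end and 25 were closer to a TSS of another gene than to one of a gene at the summit. The median signal was 110 for peaks in 3' UTRs, 96.7 in introns and 75.2 in coding exons, in the authors' signal unit.

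**Figure D1:**
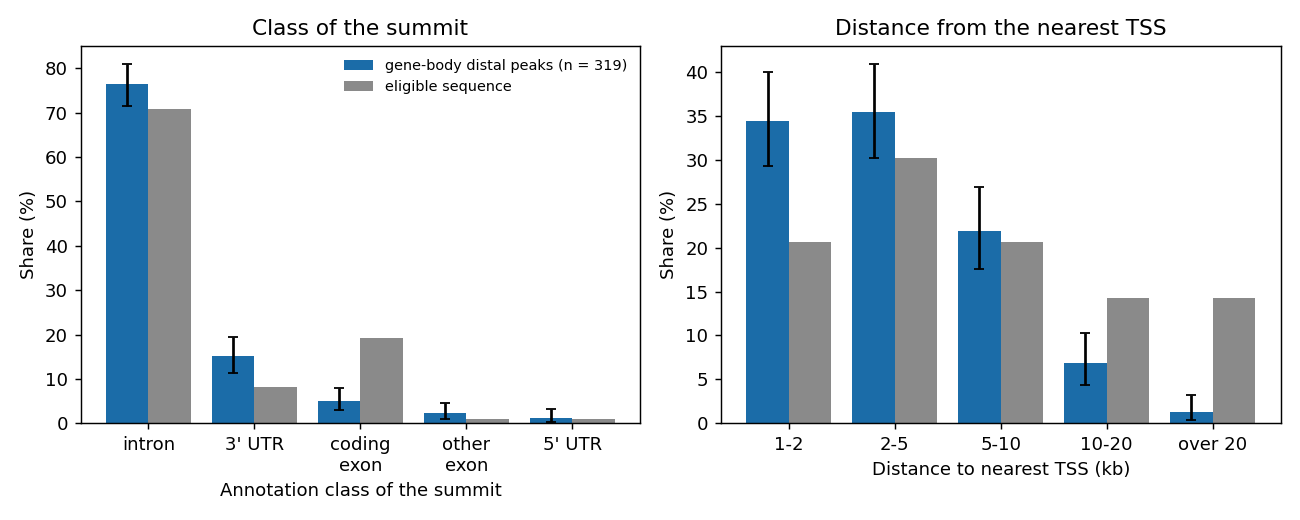
Shares of the 319 gene-body distal peaks (blue, with exact 95% intervals) beside shares of the eligible sequence (grey), by annotation class of the summit (left) and by distance to the nearest TSS in kb (right). Introns hold 76.5% of the peaks, and the nearest distance class holds 34.5% of the peaks against 20.7% of the sequence.

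The peaks thinned out with distance from a TSS even beyond the 1000 bp limit. The 1000 to 2000 bp class held 110 peaks (34.5%, 29.3 to 39.98) in 20.7% of the eligible sequence. Between 10000 and 20000 bp there were 22 (6.90%, 4.37 to 10.3) in 14.3% of it, and beyond 20000 bp there were 4 (1.25%, 0.343 to 3.18) in 14.2%. The density was 7.64 peaks per Mb in the nearest class and 0.403 per Mb in the farthest. The median distance to a TSS was 3177 bp, and the farthest peak was 27362 bp away. The median signal also went down with distance up to 20000 bp. It was 103 in the nearest class, 102 at 2000 to 5000 bp, 94.9 at 5000 to 10000 bp and 84.9 at 10000 to 20000 bp. Only the 4 farthest peaks, with a median of 180, did not follow that order. The nearest TSS belonged to a gene other than those at the summit for 130 peaks (40.8%).

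Host genes were longer than most, but the density was not highest in the longest. The median length of a protein-coding host, counted per peak with the longest host at each summit, was 26750 bp (n = 314 peaks). Over all 13968 protein-coding genes, each counted 1 time and including those without eligible sequence, it was 2165 bp. A longer gene offers more eligible sequence. In protein-coding genes with over 50000 bp of eligible sequence there were 3.23 peaks per Mb, with 20000 to 50000 bp 4.53 per Mb, and with 5000 to 20000 bp 6.78 per Mb. With 1000 to 5000 bp there were 4.13 per Mb, and with less than that 5.50 per Mb. Within the host the summits were spread along the gene, with a median position of 50.2% from its start (quartiles 26.5 and 76.0). Where the intron's number was known from the canonical transcript, 71 of 196 were in the first intron (36.2%), against 28.1% of the eligible intron sequence. For 203 of 319 (63.6%) the host also had a peak within 1000 bp of 1 of its TSSs. The peaks touched 256 protein-coding genes, 2.59% of the 9899 with eligible sequence. That number was 387 in the list of replicate 1 alone and 178 in that of replicate 2 alone. In all, 20 peaks lay in 2 or more gene bodies, and 5 had no protein-coding host.

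By chromosome arm, 3L held 83 peaks (26.0%, 21.3 to 31.2) in 19.2% of the eligible sequence. The counts were 69 on 3R, 64 on 2R, 52 on X, 50 on 2L, 1 on chromosome 4 and 0 on Y. Apart from 3L and the Y, whose share of the eligible sequence was 1.45%, the arm's share of the sequence lay within the interval of its share of peaks. Annotated transposable elements held 12 summits (3.76%, 1.96 to 6.48), against 5.41% of the eligible sequence.

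The sequence at these summits differed from that at promoter summits, with more GAGAG and less CGATA. Each window was 50 bp either side of the summit, and a word was searched on both strands. GAGAG, the core site of GAGA factor, was present in 73 of 319 gene-body distal windows (22.9%, 18.4 to 27.9), while 13.5% of all conservative peaks held it. The share was 12.8% at promoter peaks, 11.3% at distal intergenic peaks, 10.8% in windows 500 bp to either side of the gene-body distal summits, and 11.5% of 688594 windows tiled over the eligible sequence. The difference was 10.05 percentage points from promoter peaks (Newcombe 95% interval 5.65 to 15.1), 11.6 points from intergenic peaks (4.90 to 17.7) and 12.1 points from the own flanks (7.04 to 17.4). In the list of replicate 2 alone the share was 14.7%, which is 5.17 points above its promoter peaks (0.874 to 10.7). In the list of replicate 1 alone it was 25.9%.

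CGATA, the BEAF-32 word, showed the opposite order. It was present in 54 gene-body distal windows (16.9%, 13.0 to 21.5), while 47.0% of all conservative peaks held it. The share was 50.8% at promoter peaks and 21.7% at intergenic peaks, 11.0% in the own flanks and 11.2% of tiled windows. The difference was −33.8 points from promoter peaks (−37.9 to −29.1) and 5.96 points from the own flanks (1.38 to 11.0). From intergenic peaks it was −4.75 points with an interval that spans 0 (−11.9 to 2.07). Both words together were in 8 windows, and neither was in 200 (62.7%), against 40.1% of promoter windows with neither.

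CGATA was more frequent at stronger promoter peaks, while its share in gene bodies followed no such order. When all parts were divided at the quartiles of the gene-body distal signal, CGATA was in 17.5%, 10.1%, 21.3% and 18.8% of the gene-body distal windows from the weakest band to the strongest. In the same bands 20.6%, 24.8%, 36.3% and 70.6% of promoter windows held it. GAGAG was in 23.8%, 24.1%, 22.5% and 21.3% of the gene-body distal windows, so its share was close to level over the 4 bands. At promoters it was 17.2%, 17.3%, 16.3% and 9.20% in the same order.

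**Figure D2:**
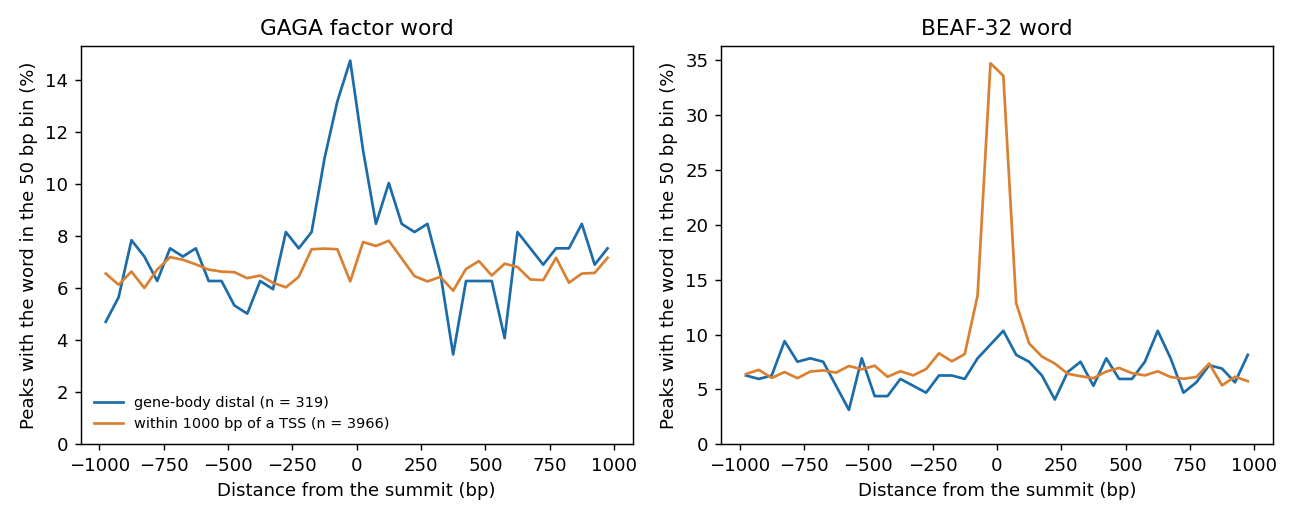
Share of peaks with GAGAG (left, GAGA factor word) or CGATA (right, BEAF-32 word) in each 50 bp bin, by distance from the summit in bp, for gene-body distal peaks (blue) and promoter peaks (orange); each panel has its own vertical scale. GAGAG reached 14.7% in the bin just before the summit of gene-body distal peaks, where promoter peaks had 6.25%, and CGATA reached 9.09% there against 34.7% at promoter peaks.

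The GAGAG windows rarely held long GA runs. The longest GA run was 11 bases and the median was 5, the length of the word itself, and 2 of 73 windows had a run of 10 bases or more. In 15 of 73 there were 2 or more sites that did not overlap. GAGAG was found at both peaks of mam, which encodes a Notch co-activator, and at both of shot, which encodes a cytoskeletal linker. It was also found at 1 of the 3 peaks of psq, which encodes a DNA-binding protein. These genes are examples only, and 22.9% of all gene-body distal windows held GAGAG. The 1 peak in Trl, the gene of GAGA factor, had no GAGAG in its window (signal 128, with 51.3 in replicate 1 and 51.8 in replicate 2).

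The Runx words did not stand out. The words searched were AACCACA as well as AACCGCA, and the forms that begin with G, namely GACCACA as well as GACCGCA. At least 1 was present in 10 gene-body distal windows (3.13%, 1.51 to 5.69), against 4.97% of promoter windows, 2.46% of intergenic windows, 4.70% of own flanks and 4.43% of tiled windows. The intervals of the differences from promoters (−3.43 to 0.784 points) and from the own flanks (−3.97 to 1.33) span 0. The same letters reversed, which are ACACCAA beside ACGCCAA and then ACACCAG beside ACGCCAG, were in 13 gene-body distal windows (4.08%) and 4.16% of tiled windows. With 100 bp either side the Runx words were in 11.6% of gene-body distal windows and the difference from promoters was 2.72 points (−0.479 to 6.79).

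Of the core promoter words, few were found. TATCGATA, the DREF word, was in 6 windows (1.88%), which are among the 54 with CGATA since the word contains it, against 16.8% of promoter windows and 0.190% of tiled windows. GGTCACAC, the M1BP word, was in 0 of 319, which allows a share of up to 0.940% when 3 counts are taken as the limit, against 4.82% at promoters and 0.147% of tiled windows. E-box words CAGCTG or CACGTG were in 11 (3.45%), against 10.4% at promoters and 5.40% of tiled windows.

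For the other words searched, GCCAT of the Polycomb recruiter Pho was in 77 windows (24.1%), against 18.1% at promoters and 20.01% of tiled windows. The difference was 6.01 points from promoters (1.47 to 11.1) and 6.27 points from the own flanks (0.875 to 11.98). From tiled windows it was 4.13 points (−0.244 to 9.11), and from intergenic peaks 2.46 points (−5.09 to 9.60). The intervals from tiled windows and from intergenic peaks span 0, so an excess over the eligible sequence was not shown. CACACACA was in 17 (5.33%), against 1.82% of promoter and 2.13% of tiled windows. CAGGTA of Zelda was in 8 (2.51%), against 2.22% of promoter and 2.26% of tiled windows. TGANTCA of AP-1 was in 7 (2.19%), against 1.77% of promoter and 1.98% of tiled windows. AGATAAG of GATA factors was in 2 (0.627%), against 0.454% of promoter and 1.11% of tiled windows. CCGGAAG of ETS factors was in 1 (0.313%), against 0.227% of promoter and 0.598% of tiled windows. AACCGGTT of Grainyhead was in 0, against 0.252% of promoter and 0.0873% of tiled windows. A word absent from a window says only that these letters are not there.

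A further 3 words were chosen after all words of 6 to 8 bases in these windows had been ranked, so their shares are a description of the windows that picked them. AGATGGCG or AGGTGGCG, the core of the fly CTCF site, was in 22 gene-body distal windows (6.90%), against 1.64% of promoter, 12.3% of intergenic and 0.512% of tiled windows. Among gene-body distal peaks in the stronger 50% of the list the share was 13.6%. The form AGATGGCG contains GCCAT on the other strand and the form AGGTGGCG does not. Of the 22 windows, 15 are also counted under GCCAT and 7 are not. The median signal was 142 with it and 96.7 without, and it was in 4 of the 20 strongest peaks, those in CG9171, Eip74EF, Eip75B and Jupiter. GGCGCCA was in 24 windows (7.52%), against 2.12% of promoter, 7.88% of intergenic and 0.930% of tiled windows. CTATCAGA was in 14 (4.39%), against 0.429% of promoter, 2.96% of intergenic and 0.240% of tiled windows, and in 2.84% and 1.85% of gene-body distal windows in the lists of replicate 2 and replicate 1 alone. The 14 windows share more than the word: at least 8 of them hold the same run of 15 bases, and 6 of the 14 summits were in annotated transposable elements.

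Signal was lower in gene bodies than at promoters. The median was 98.4 (quartiles 76.8 and 145, range 2.97 to 575) for gene-body distal peaks, 151 (98.4 and 276, up to 1962) for promoter peaks and 135 (88.7 and 193, up to 728) for intergenic peaks. In the ranked list of replicate 1 the medians were 60.6 for gene-body distal peaks and 98.9 for promoter peaks, and in that of replicate 2 they were 40.5 and 58.8 in the same order. The parts overlap widely in each replicate, from 33.3 to 409 against 9.04 to 1161 in replicate 1 and from 14.5 to 201 against 24.8 to 806 in replicate 2. GC content had a median of 45.5% in gene-body distal windows and 44.6% in promoter windows.

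Gene-body distal peaks were found less often in each replicate's own list. A peak was counted as found where it and a replicate peak shared 1 bp or more. In replicate 1 this held for 238 of 319 (74.6%, 69.5 to 79.3), while 90.8% of all conservative peaks were found there. Against promoter peaks (92.1%) the difference was −17.5 points (−22.6 to −12.9). In replicate 2 it held for 158 (49.5%, 43.9 to 55.2), while 67.8% of all conservative peaks were found there, and the difference from promoter peaks (69.4%) was −19.8 points (−25.5 to −14.2). Against intergenic peaks the differences were −15.0 points (−21.2 to −8.38) in replicate 1 and −15.5 points (−23.8 to −6.79) in replicate 2. Both lists held 137 of the peaks, replicate 1 alone held 101, replicate 2 alone held 21, and neither held 60.

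Signal and recurrence moved together. The conservative signal is taken as that of the pooled replicates, so it is not independent of the replicate lists, and a rise of recurrence with it is partly built in. In the strongest band, 98.8% of gene-body distal peaks were found in replicate 1 and 92.5% in replicate 2, against 99.6% and 96.0% of promoter peaks. In the weakest band, 45.0% were found in replicate 1 and 11.3% in replicate 2, against 61.4% and 27.3% of promoter peaks. In band 2, counted from the weakest, the shares were 60.8% against 82.9% in replicate 1 and 32.9% against 27.4% in replicate 2. In band 3 they were 93.8% against 96.3% and 61.3% against 54.6%. In these middle bands the gene-body distal share was therefore lower in replicate 1 and higher in replicate 2. The part that signal plays in the difference was not tested. When only the 3200 strongest replicate 1 peaks were used, 38.6% of gene-body distal peaks were found there, a difference of −30.9 points from promoter peaks.

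**Figure D3:**
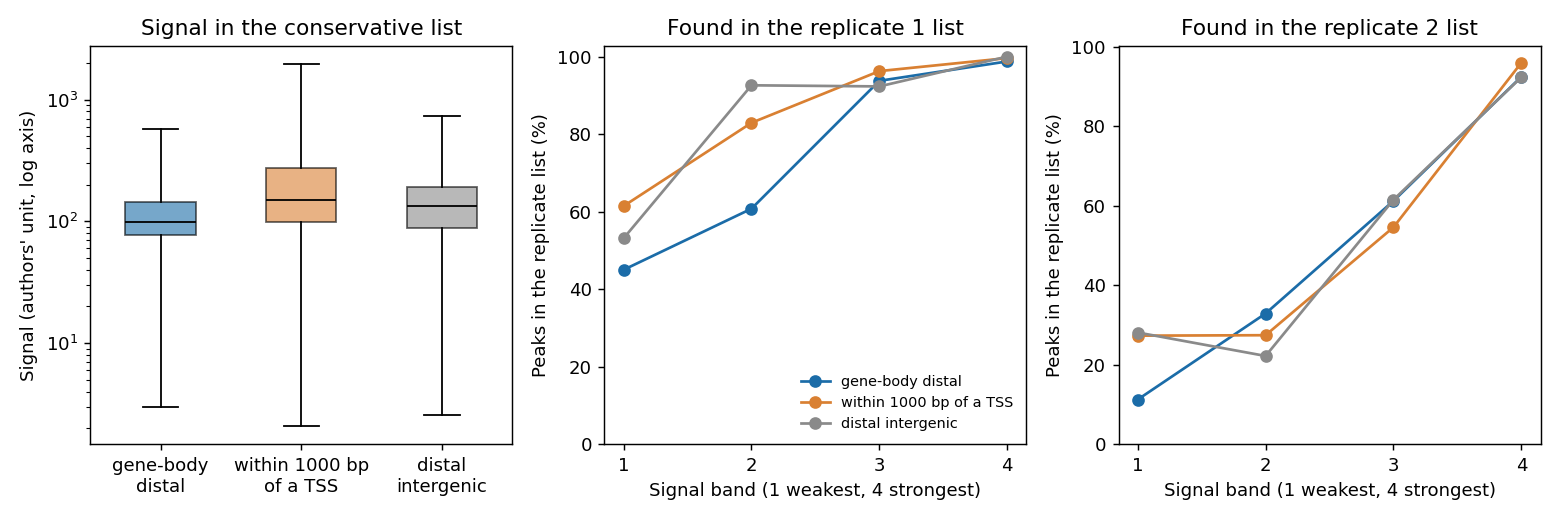
Left, signal of gene-body distal, promoter and intergenic peaks in the authors' unit on a log axis, with boxes for the quartiles, a line for the median and whiskers for the full range. Middle and right, share of each part found in the replicate 1 and replicate 2 lists, in 4 signal bands set at the quartiles of gene-body distal signal; the gene-body distal share goes up from 45.0% to 98.8% in replicate 1 and from 11.3% to 92.5% in replicate 2.

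Replicate 1 had the higher signal at most gene-body distal peaks. It was higher at 264 of the 317 with a ranked peak in both replicates (83.3%), with a median log2 ratio of replicate 1 over replicate 2 of 0.53 (SD 0.58 across peaks). Promoter peaks had a median of 0.69. No scaling between the libraries is stated, and after each replicate was divided by its own median over all conservative peaks the median at gene-body distal peaks was −0.21. With 2 libraries of 1 group there is no test of these values.

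**Figure D4:**
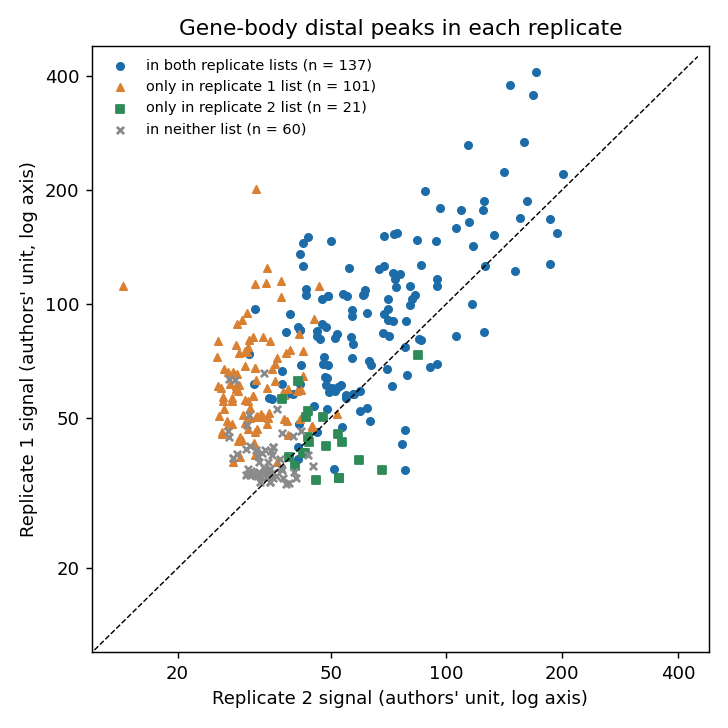
Signal of each gene-body distal peak in replicate 1 (vertical) against replicate 2 (horizontal), in the authors' unit on log axes; colours and shapes show which replicate lists held the peak, the dashed line marks equal signal, and 2 peaks without a ranked peak in both replicates are not drawn. Most points (264 of 317) lie above the line, and the peaks in neither list lie toward the low end of both axes, at up to 65.8 in replicate 1 and 45.0 in replicate 2.

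The strongest gene-body distal peaks were in genes of many kinds. CG3726 had the strongest, with 409 in replicate 1, 170 in replicate 2 and 575 in the conservative list. CG16989 followed in a 3' UTR, with 356 in replicate 1 and 168 in replicate 2. The third was in org-1, a T-box transcription factor gene, with 378 and 146. Replicate 1 was the higher at each of these 3 peaks. All 20 strongest were found in both replicate lists, while 42.9% of all gene-body distal peaks were. The signal that ranks them is not independent of those lists. Of the 20, 15 were intronic, near the 76.5% over all gene-body distal peaks.

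Next came a peak in the shared body of Atg1, which encodes an autophagy kinase, and CG42709, with 267 in replicate 1 and 159 in replicate 2. A peak in CG43066 had 220 and 201, and one in Pp2C1, a protein phosphatase gene, had 263 and 114. CG8745 had 223 and 141, and CG9171 had 167 and 186. Replicate 2 was the higher at 4 of the 20 strongest peaks, those in CG9171, RpS26, GluClalpha and unc79.

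The remaining strongest hosts include genes of signalling, cell shape and excitability. Ptp61F, a tyrosine phosphatase gene that shares its body with CG9166, had a conservative signal of 347 in a 3' UTR. RpS26, a ribosomal protein gene, had 339, and Svil, which encodes an actin-binding protein, had 324. The scrib peak, in a coding exon of this cell polarity gene, had 308. GluClalpha, a glutamate-gated chloride channel gene, had 302, with 127 in replicate 1 and 186 in replicate 2. Eip74EF, an ecdysone-induced ETS-domain factor gene, had 295, and its summit was 20479 bp from the nearest TSS. The peaks in unc79, a gene for a sodium leak channel complex, and Tet, a gene for a DNA-modifying dioxygenase, had 283 and 280. Eip75B, a nuclear receptor gene, bun, a gene of the TSC22 family, and CG32264 each had 279. Jupiter, which encodes a microtubule-associated protein, had 277.

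Several genes held more than 1 peak. EcR, the ecdysone receptor gene (chr2R:6087873-6169087, minus strand), and Tlk, a Tousled-like kinase gene (chrX:3720007-3789770, plus strand), had 5 each. The EcR peaks had conservative signals of 204, 83.0, 74.8, 71.3 and 4.87. The strongest had 126 in replicate 1 and 68.6 in replicate 2, and its nearest TSS, 1345 bp away, was that of a tRNA gene inside EcR. The weakest is 201 bp from it and overlaps it, so both take the same replicate 1 value. The list of replicate 2 alone had 1 peak in EcR, that of replicate 1 alone had 5, and with a TSS limit of 2000 bp there were 3.

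The Tlk peaks had signals of 150, 147, 116, 51.1 and 30.9, and 4 of them lay in a stretch between 21004 and 23222 bp from the gene's start. The strongest had 103 in replicate 1 and 47.5 in replicate 2. The peaks at 116 and 30.9 overlap, with summits 206 bp apart, and take the same replicate 2 value. The list of replicate 2 alone had 3 peaks in Tlk, and with a TSS limit of 2000 bp there were 2. The gene pum (chr3R:9066343-9237682, minus strand), which encodes a translational repressor, had 4 with 165, 154, 110 and 102, and 3 of these were in its 3' UTR. The first of them had 93.8 in replicate 1 and 68.9 in replicate 2. The peaks at 165 and 154 overlap, with summits 199 bp apart, and take the same replicate 1 value.

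**Figure D5:**
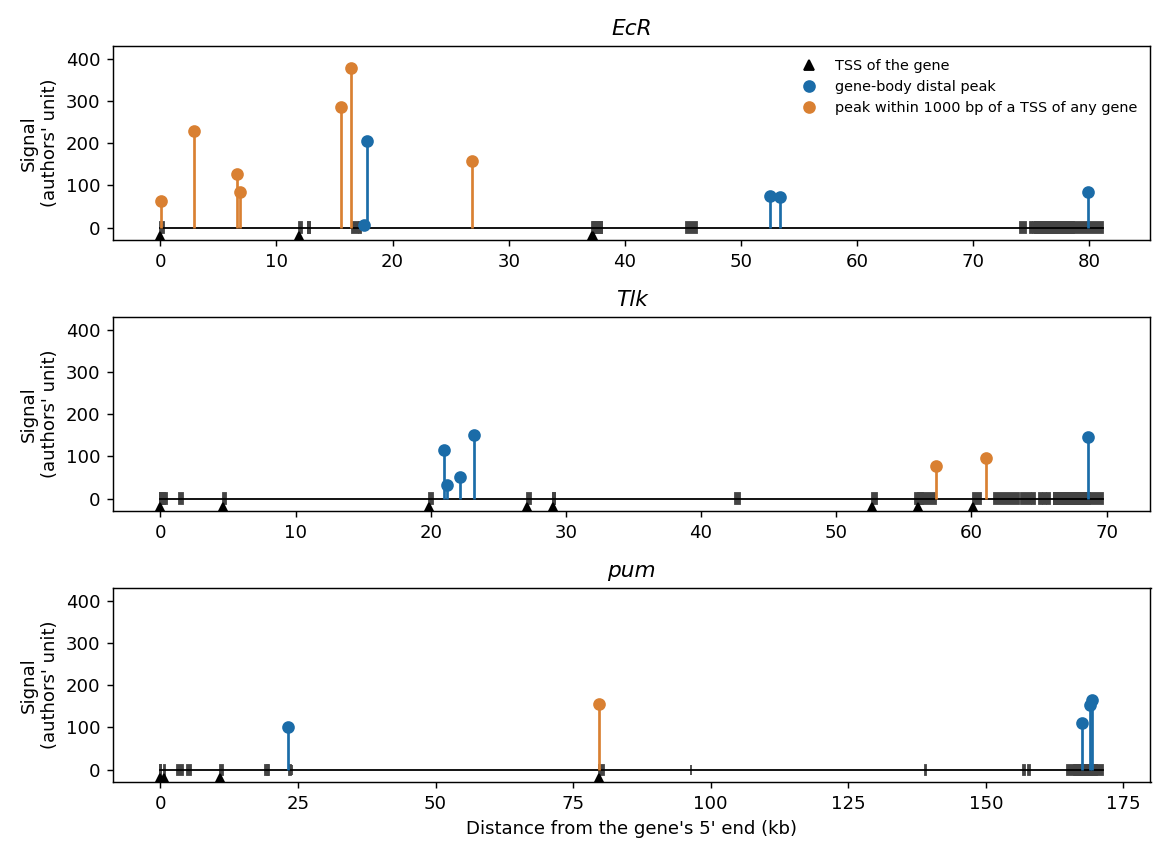
Gene-body distal peaks (blue) and peaks within 1000 bp of a TSS of any gene (orange) in EcR, Tlk and pum, by distance from the gene's 5' end in kb, with height as the conservative signal in the authors' unit; black blocks are exons and triangles are the gene's own TSSs. In pum 3 of the 4 gene-body distal peaks, at 165, 154 and 110, stand at the 3' end.

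A further 12 genes held 3 peaks each. Their strongest peaks were 371 in CG8745, 351 in CG9171, 269 in raskol, which encodes a Ras GTPase-activating protein, 198 in Kr-h1, a zinc-finger gene of juvenile hormone response, and 171 in the body shared by Antp and CG46458. They were 170 in tna, which encodes a SUMO ligase, 145 in the kinase gene Sik3, 137 in SNF4Agamma, which encodes an AMP-activated kinase subunit, 128 in psq, 99.4 in Abd-B and 76.7 in RasGAP1. Close pairs count towards some of these totals, since 28 of the 319 peaks overlap another conservative peak. Among the 20 weakest, 14 do so. The weakest of all, at 2.97, is in Spn and 230 bp from the next summit.

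Ecdysone receptor and response genes held peaks in 6 of 12 genes, with 14 peaks in all and 24.8 per Mb of eligible sequence. Over all protein-coding genes in the same classes of eligible length the share was 14.1%. Besides EcR, Eip74EF and Eip75B, the hosts were Hr4 with a strongest signal of 170, Eip78C with 96.4 and ftz-f1 with 73.3, all genes for nuclear receptors. The second peak of Eip74EF had 83.5 and that of Eip75B had 81.2. Of the 14 peaks, 4 held GAGAG, 4 held the CTCF core, a word picked from the gene-body distal windows, and 0 held CGATA. Over all gene-body distal windows the shares were 22.9%, 6.90% and 16.9% in that order. The genes usp, Hr3, Hr38, Hr39, br and Eip93F held 0.

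Hox genes, which set segment identity, held peaks in 4 of 8 genes, with 9 peaks and 30.3 per Mb, against 10.4% of all genes in the same length classes. The strongest were in Ubx (233), Antp (171), pb (126) and Abd-B (99.4). The Ubx peak had 201 in replicate 1 and 32.1 in replicate 2 and was not in the replicate 2 list. Its second peak, at 76.7, had no ranked peak in replicate 1 and 28.1 in replicate 2. The Antp peak had 103 in replicate 1 and 70.4 in replicate 2, and the pb peak had 60.7 and 72.2. Of the 9 peaks, 3 were found in both replicate lists, while 42.9% of all gene-body distal peaks were. The genes lab, Dfd, Scr and abd-A held 0.

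Axon guidance and adhesion genes are also long, with a median eligible length of 48822 bp, and 1 of 17 held a peak (5.88%, against 13.8% in the same length classes). That was Dscam1, which encodes a neuronal cell adhesion protein, with 168 in the conservative list, 80.6 in replicate 1 and 85.0 in replicate 2. The list's density was 0.883 peaks per Mb. In the lists of either replicate alone 2 of the 17 genes held a peak, and in the second series list 3 did.

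In the EGFR pathway 3 of 13 genes held a peak: the receptor gene Egfr (185), the effector gene pnt (73.3) and the inhibitor gene aos (4.56, a peak that overlaps another). The body of aos lies inside that of CG33158, so the aos peak is in both. All genes in the same length classes had a share of 5.40%. The cytoskeleton list had 2 of 13, in shot (104) and zip (91.4), against 5.30% of all genes in its length classes. The RNA binding list had 2 of 13, in pum and in msi (79.4, in a body shared with ymp), against 11.9%. Polycomb and trithorax genes had 2 of 14, in Trl (128) and osa (75.7), against 5.13%. Mesoderm and muscle genes had 2 of 13, in Mef2 (123) and twi (93.3), against 9.60%.

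Lists with 1 gene were the Notch pathway with mam (98.6), the Wnt pathway with nkd (73.1), the Dpp pathway with its inhibitor Dad (120), insulin and TOR signalling with the receptor gene InR (205), and neural identity with elav (74.3). The elav peak also lies in the body of arg. Of 13 Notch genes, 11 Wnt, 10 Dpp, 10 insulin and 10 neural genes with eligible sequence this is 7.69%, 9.09%, 10%, 10% and 10%. The shares of all genes in their length classes were 8.63%, 9.57%, 6.32%, 4.30% and 3.54% in that order. There were 0 genes with a peak in segmentation (of 16), eye specification (of 12), hemocyte (of 11), insulator (of 10 with eligible sequence) and Hedgehog (of 8) lists. Of all genes in their length classes 1.40%, 5.42%, 6.86%, 1.32% and 3.30% held a peak, in that order, so a count of 0 in lists of 8 to 16 genes is near that share.

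Bgb, its paralog Bro and the genes of the Runt-domain factors (lz, run, RunxB and RunxA) held 0 gene-body distal peaks. Bgb has 241 bp of eligible sequence and Bro has 0, so there was almost no place for one. RunxA has 32521 bp, RunxB 27600 bp, lz 17987 bp and run 3650 bp. Of all protein-coding genes with 20000 to 50000 bp of eligible sequence 10.7% held a peak. With 5000 to 20000 bp it was 5.81%, and with 1000 to 5000 bp 0.977%. A count of 0 in these few genes is near those shares. The strongest ranked peak at an eligible place was 52.1 for replicate 1 and 22.7 for replicate 2 in RunxB, 13.2 and 30.6 in lz, 16.6 and 21.5 in run, and 16.3 and 19.3 in RunxA.

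Near the 1000 bp limit, the nearest peaks counted were in SNF4Agamma at 1013 bp (signal 137), Cipc at 1028 bp (156) and CG33144 at 1030 bp (86.7). The nearest not counted were in Pgd at 984 bp (147), mam at 983 bp (263) and CG5984 at 982 bp (10.4).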

How the data were processed

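Peak lists on dm6 were used as deposited by the authors: a conservative list and a second list for the series, thresholded by the irreproducible discovery rate per the file names, and a thresholded and a ranked list per replicate. The tool for alignment, peak calling or scaling is not given in the sources used here. Each peak's signal is the authors' value in the deposited files, and the summit is their offset from the peak's start. Fragments were 200 to 800 bp, per the labels.

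Summits were placed in the Ensembl release 115 annotation of the same assembly, with untranslated regions (5' before 3') ahead of coding exons, other exons and introns. A replicate's signal at a peak is that of the overlapping ranked peak with the nearest summit. Shares have exact Clopper-Pearson 95% intervals and differences have Newcombe 95% intervals. Peaks are not replicates, so no p-value was computed over them. A word was searched in windows of 101 bases in RefSeq Release 6 sequence, also tiled over the eligible sequence.

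Genes were named as hosts of the 20 strongest peaks, hosts of 3 or more, the 3 strongest of each list, the Bgb and Runx genes, and the 3 peaks on each side of the TSS limit. The members, the 18 gene lists (216 genes, 4 of them matched through an older name) and the words were chosen with earlier results of these data known. Other genes were named after their values were seen. The placing of summits in classes, the share of windows with GAGAG and the coverage of the Newcombe interval were tested on simulated data. Other steps were not tested in that way. Alternatives covered the list, TSS limit, coding genes, stronger 50% of peaks, single replicates, overlap rules, windows and scaling. Software was matplotlib 3.10.9, numpy 2.4.6, scipy 1.17.1, pandas 2.3.3 and Python 3.11.15.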

Additional observations from a re-analysis of the deposited data

How the results depend on the processing

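No paired analysis was possible because there was 1 group. Lists from 1 replicate gave 211 to 540 gene-body distal peaks, 6.59% to 8.91% of the list, coding-exon shares of 4.81% to 9.95%, median signals of 50.1 to 55.6, GAGAG shares of 14.7% to 25.9% and 178 to 387 host genes. The second list gave 699 peaks (10.9% of it), 510 host genes, 13.2% in coding exons and 10.9% in 3' UTRs. The TSS limit at 500 bp gave 10.2% of the list, at 2000 bp 209 peaks (4.66%, with 2.87% in coding exons), and coding genes alone gave 8.67%. The stronger 50% gave 81 peaks (3.61%), a median signal of 192 and 2.47% in coding exons. With 100 bp windows CGATA was in 27.6% and GAGAG in 35.7%, and the Runx difference from promoters was 2.72 points in place of −1.83. The share found in replicate 1 was 68.7% when 50% of the peak had to be covered and 38.6% with the shortened list. The scaled log2 ratio was −0.21 in place of 0.53. In the second list the GCCAT difference from promoters was 2.23 points, with an interval that spans 0. The differences in GAGAG, in CGATA and in recurrence from promoter peaks kept their direction, with intervals apart from 0, under each alternative run for them. Leaving out the peaks that overlap another, chosen after seeing the data, gave 23.0% for GAGAG and 17.5% for CGATA. Depth is unknown, so no detection limit can be given for either replicate.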
